A study of Rattus norvegicus with 9 samples.

Results

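Rat MHC class I molecules present peptides from inside the cell to CD8+ T cells. In the bone RNA of 9 rats, 10 of their genes were followed library by library: the heavy chain genes RT1-A1, RT1-A2, RT1-A3, RT1-CE10, RT1-CE12, RT1-CE13 and RT1-CE16, the shared light chain gene B2m, and the peptide transporter genes Tap1 and Tap2. They are the rows with these 10 names among the 23026 genes of the tables, and all 10 passed the filter on low counts that left 16874 genes. The 7 RT1 genes were chosen by their counts in these same libraries, so their differences are given as a description with no test. B2m, Tap1 and Tap2 were set beside them and tested.

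Female Sprague–Dawley rats, an outbred stock, were 8 weeks old on purchase and formed 3 groups of 3 libraries. Sham rats underwent a sham operation and OVX rats the removal of both ovaries, a model of postmenopausal osteoporosis, and both then received the vehicle CMC-Na. OVX-AS-IV-High rats were ovariectomized and received astragaloside IV (AS-IV), a saponin of Astragalus, at 80 mg/kg. Dosing by gavage began 6 weeks after surgery and lasted 8 weeks. Vehicle strength in the labels is 1%, 2% and 3% for Sham-1, -2 and -3 and 1% for OVX, while the study's methods name a single vehicle. The class I haplotypes of the rats are not given in the sources used here.

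Each library held 34874880 to 37298250 counts, and CPM below are counts scaled to a common library size after TMM normalization. Genes of osteoblasts and osteoclasts were detected in all 9 libraries, matching the label bone, together with those of marrow leukocytes and erythroid cells. The summed CPM of 6 of 7 skeletal muscle markers ranged 15.2-fold between libraries, from 472.3 in OVX-AS-IV-High-3 to 7196 in Sham-1, and 1 of the 7 had no row of its name. The summed CPM of 6 leukocyte markers was 1821 to 2074 in Sham, 2339.7 to 2498 in OVX and 2427 to 2702 in the treated group. In such bulk samples, fewer cells of a type and less RNA per cell cannot be told apart.

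A class I molecule is a heavy chain bound to β2-microglobulin, the product of B2m, and to a short peptide. Proteasomes cut proteins into peptides, the heterodimer of Tap1 and Tap2 carries these into the endoplasmic reticulum, and chaperones such as tapasin load them. The heavy chains are polymorphic and encoded by many related RT1 genes, whose number differs between rat haplotypes, whereas B2m is a single gene outside the complex. Interferons and NF-κB are known inducers of the whole pathway.

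In the RefSeq annotation of assembly GRCr8, RT1-A3, RT1-A2 and RT1-A1 follow each other between Ring1 and Vps52, and the CE genes lie elsewhere on the same chromosome, RT1-CE16 between Pou5f1 and RT1-CE15. RT1-CE13 lies within the span of RT1-CE12. RT1-A3 and RT1-CE16 varied together, RT1-CE13 tended the other way, and B2m and Tap1 varied less. Their promoter windows are shown for contrast. Each runs from 250 bases before the annotated start to 50 bases from it, 5′ to 3′ on the gene's own strand, in GRCr8. The counts were made on another build, mRatBN7.2. Capitals mark GGGGATTCC, the letters of an NF-κB-type site, and TTTCACTTC in the RT1 windows, and TTCNNTTTC, an interferon-response-type core, in those of B2m and Tap1. Both strands were searched, and a capital run that does not read as these letters is the reverse complement.
RT1-A3 (chr20:4849201-4849500, plus strand): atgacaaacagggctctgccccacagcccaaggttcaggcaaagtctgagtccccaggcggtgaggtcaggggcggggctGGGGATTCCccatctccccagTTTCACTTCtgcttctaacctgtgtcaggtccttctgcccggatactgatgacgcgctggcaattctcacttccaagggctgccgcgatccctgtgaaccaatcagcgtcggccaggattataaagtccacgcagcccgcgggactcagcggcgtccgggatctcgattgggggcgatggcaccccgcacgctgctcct
RT1-CE16 (chr20:3265394-3265693, minus strand): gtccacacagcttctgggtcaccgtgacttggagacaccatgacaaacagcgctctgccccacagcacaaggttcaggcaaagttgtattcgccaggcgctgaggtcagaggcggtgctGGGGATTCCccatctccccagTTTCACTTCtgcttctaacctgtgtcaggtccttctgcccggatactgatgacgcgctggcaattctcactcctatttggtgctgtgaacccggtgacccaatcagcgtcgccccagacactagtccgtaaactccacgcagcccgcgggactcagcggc
RT1-CE13 (chr20:3322750-3323049, minus strand): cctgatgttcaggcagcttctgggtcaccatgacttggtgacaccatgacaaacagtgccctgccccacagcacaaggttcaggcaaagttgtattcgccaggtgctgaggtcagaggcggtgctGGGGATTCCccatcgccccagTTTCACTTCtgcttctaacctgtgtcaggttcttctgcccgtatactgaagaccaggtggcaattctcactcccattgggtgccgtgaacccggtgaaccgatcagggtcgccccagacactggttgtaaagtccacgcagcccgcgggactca
B2m (chr3:129549080-129549379, plus strand): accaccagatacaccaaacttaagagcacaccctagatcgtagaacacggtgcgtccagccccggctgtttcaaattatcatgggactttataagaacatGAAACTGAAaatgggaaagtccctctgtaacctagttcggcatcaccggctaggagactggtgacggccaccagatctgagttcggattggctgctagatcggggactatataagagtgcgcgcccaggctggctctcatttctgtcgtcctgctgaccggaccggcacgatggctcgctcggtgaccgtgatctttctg
Tap1 (chr20:4668494-4668793, minus strand): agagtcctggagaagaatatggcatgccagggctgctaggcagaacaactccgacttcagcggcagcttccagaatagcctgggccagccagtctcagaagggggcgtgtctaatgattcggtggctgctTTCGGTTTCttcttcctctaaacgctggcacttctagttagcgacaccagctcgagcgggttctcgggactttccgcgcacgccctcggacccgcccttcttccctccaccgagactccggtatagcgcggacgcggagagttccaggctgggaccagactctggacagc

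GGGGATTCC and TTTCACTTC each occurred in the windows of 6 of the 7 RT1 genes, all but RT1-CE12, against 0.291% and 0.506% of 27457 RefSeq promoter windows of this length. TTTCACTTC was added after these windows were read, so its count among them is a description and cannot show enrichment. The former began at position -170 in RT1-A3, -131 in RT1-CE16 and -125 in RT1-CE13, with the base before the start counted as -1. TTTCACTTC was also found in Tap2, where it overlaps a match to TTCNNTTTC. TTCNNTTTC occurred in B2m, Tap1 and Tap2, in 0 of the 7 RT1 windows, and in 9.5% of all windows. Only exact letters were counted, so the 0 does not show that the RT1 windows lack an interferon-response site. The 6 RT1 windows with both sites were 86.7% to 94.4% identical in the 15 pairs, while RT1-CE12 shared 66.5% to 79.0% with the others. Windows so alike are not separate occurrences, so the count of GGGGATTCC cannot show enrichment either. RT1-A3 and RT1-CE13, whose log2 CPM correlated at r = -0.66, both hold GGGGATTCC and TTTCACTTC, in windows 88.7% identical over 248 aligned bases. The windows are those of the assembly and not of these rats. The part of these letters in the levels was not tested.

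Per length, B2m was by far the most abundant of the 10 transcripts. Its FPKM (fragments scaled to transcript length and library size) was 746.0 ± 86.5 in Sham, 887.3 ± 94.2 in OVX and 861.1 ± 59.7 in the OVX-AS-IV-High group (SD, n = 3 each), and its lowest library, at 651.9, lay above the highest of any other gene, 211.9 for RT1-CE16. The median FPKM over the 9 libraries was 71.1 for RT1-A2, 59.1 for Tap2, 37.4 for Tap1, 32.0 for RT1-CE16, 31.0 for RT1-CE12, 19.1 for RT1-A3, 13.3 for RT1-CE13, 9.16 for RT1-A1 and 5.76 for RT1-CE10. Below B2m, neighbours in this order overlapped in their ranges over libraries.

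RT1-CE16 varied most among the 10 genes. It had 212.8, 206.7 and 54.3 CPM in Sham-1, -2 and -3. In OVX the values were 207.7, 346.6 and 4.29 CPM, and in the OVX-AS-IV-High libraries 4.60, 11.1 and 2.17 CPM. All 3 treated libraries lay below every Sham library, but OVX-3 was as low as they were, so that OVX and OVX-AS-IV-High overlapped. The highest library was 159.6-fold above the lowest, or 13140 counts in OVX-2 against 79 in OVX-AS-IV-High-3.

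RT1-A3 gave the same division of libraries. Its CPM was 62.0, 37.3 and 32.0 among Sham rats, 74.7, 70.1 and 1.74 in OVX, and 2.56, 0.975 and 1.35 in the OVX-AS-IV-High libraries, a range of 76.6-fold. OVX-3 again lay among the treated libraries, with 64 counts against 2741 and 2659 in the other OVX libraries. Both genes correlated at r = 0.95 across the 9 libraries (log2 CPM), a description of genes that share libraries and may share reads. Although they were low in the same 4 libraries, Sham-3 had about as much RT1-A3 as Sham-2 but a much lower RT1-CE16.

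RT1-A1, the next gene after RT1-A2 in the RefSeq order, followed them over a smaller range of 4.82-fold. It had 19.3, 18.1 and 17.2 CPM among Sham rats, 41.7, 32.8 and 12.9 in OVX and 8.65, 8.99 and 11.7 in the OVX-AS-IV-High libraries. The treated libraries lay below all others, although OVX-3 came within a few CPM of them. RT1-A1 was the only 1 of the 10 genes whose treated libraries did not overlap with OVX, which held for 12.7% of all genes tested. None of the 10 had separate Sham and OVX libraries, as 23.3% of all genes did. Its r with RT1-A3 was 0.87 and with RT1-CE16 0.82.

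RT1-CE13 tended the other way. Its CPM was 4.2, 6.39 and 28.4 among Sham rats, 11.4, 2.4 and 40.9 in OVX, and 21.2, 15.8 and 17.2 in the OVX-AS-IV-High libraries, so the highest libraries were OVX-3 and Sham-3 and the lowest OVX-2. The range was 17.0-fold, and r with RT1-CE16 was -0.77. Sham and OVX each held libraries above and below all 3 treated libraries. A record that overlaps RT1-CE12, LOC120098829, had 301, 411 and 389 counts in Sham-3, OVX-3 and OVX-AS-IV-High-1 and at most 62 elsewhere. That division differs from RT1-CE13 in OVX-AS-IV-High-2 and -3, where RT1-CE13 had 583 and 626 counts and LOC120098829 had 38 and 45.

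RT1-CE10 had yet another distribution, with 21.2, 1.97 and 2.82 CPM among Sham rats, 21.1, 22.3 and 6.40 in OVX and 4.10, 3.14 and 6.76 in the OVX-AS-IV-High libraries. It was high in Sham-1, OVX-1 and OVX-2, and both other Sham libraries lay below the treated ones. The range was 11.3-fold, and all groups overlapped.

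RT1-A2 and RT1-CE12 were steadier. RT1-A2 had 168.2, 85.3 and 84.6 CPM among Sham rats, 177.8, 163.1 and 170.2 in OVX, and 148.6, 123.7 and 174.3 in the OVX-AS-IV-High libraries. Sham-2 and Sham-3 lay below every other library, and OVX-3 and the treated libraries held 123.7 to 174.3 CPM. RT1-CE12, at 60.8, 31.1 and 49.2 CPM among Sham rats, 49.8, 33.9 and 49.8 in OVX and 79.2, 32.1 and 33.6 in the OVX-AS-IV-High libraries, ranged 2.55-fold with every group overlapping.

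**Figure D1:**
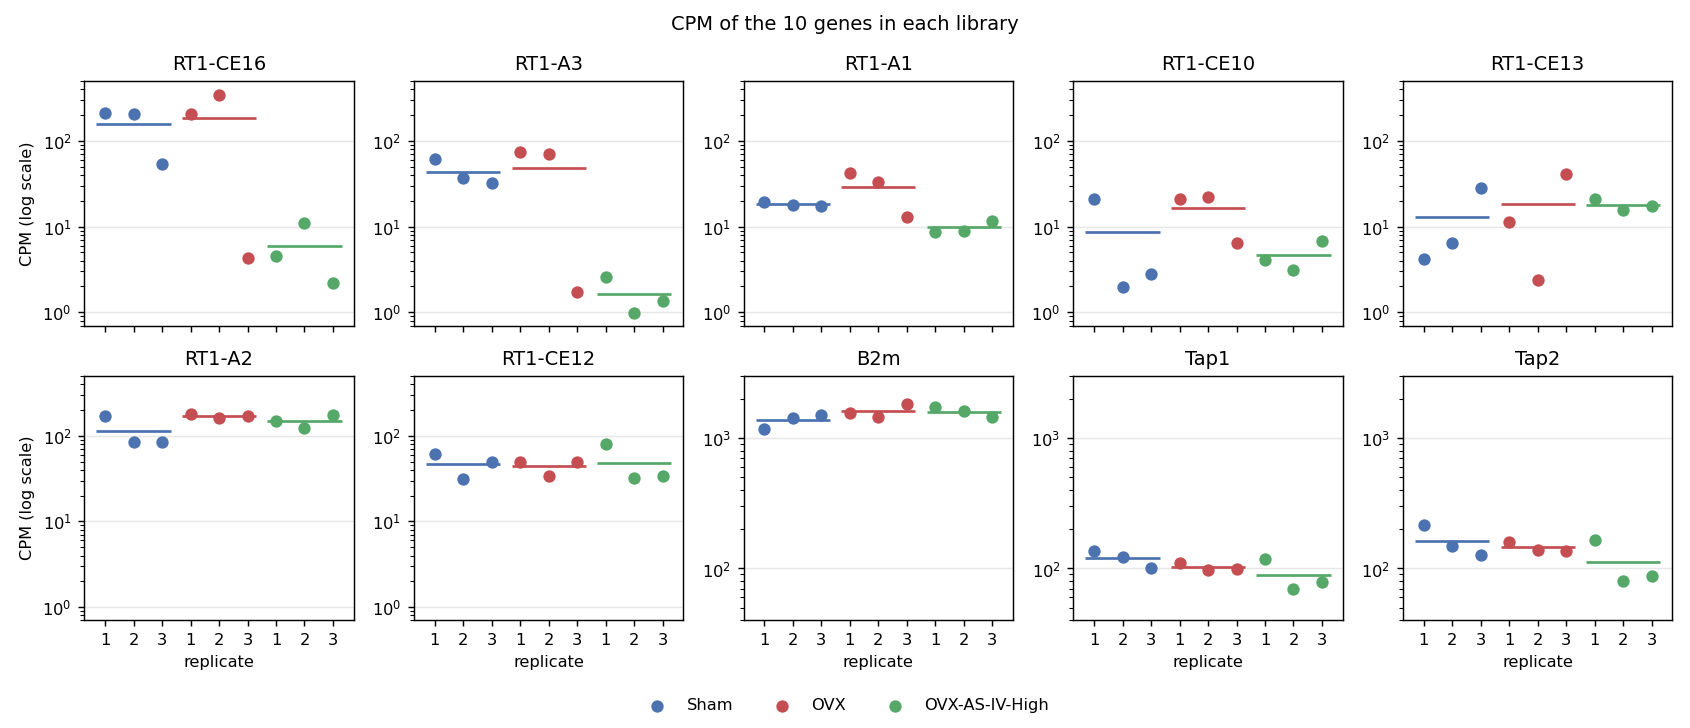
CPM (log axis) of each of the 10 genes in the 9 libraries, with replicate number on the x axis, color for the group and a line at the group mean. The RT1 panels share 1 scale and the others another. RT1-CE16 and RT1-A3 were low in OVX replicate 3 and the 3 OVX-AS-IV-High libraries, whereas B2m ranged 1.54-fold over all libraries.

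Of the 3 genes that serve every class I molecule, B2m varied less than any of the 7 RT1 genes, with a range of 1.54-fold. Outside the 7, the class I row RT1-M3-1 ranged less, at 1.46-fold. Tap1 and Tap2, at 1.96-fold and 2.66-fold, varied about as much as RT1-A2 and RT1-CE12. B2m had 1173, 1429.8 and 1513 CPM among Sham rats, 1554, 1439 and 1812 in OVX, and 1718, 1605 and 1456 in the OVX-AS-IV-High libraries. OVX-3, which was nearly without RT1-CE16 and RT1-A3, had the highest B2m of all libraries. Sham-1, with the highest muscle markers, had the lowest B2m, and the part of the muscle markers in that value was not tested.

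Tap1 had 135.2, 122.3 and 100.8 CPM among Sham rats, 109.7, 97.3 and 98.6 in OVX, and 118.8, 69.1 and 79.3 in the OVX-AS-IV-High libraries. Tap2 had 214.2, 149.3 and 126.5 CPM among Sham rats, 158.6, 139.4 and 137.1 in OVX, and 165.4, 80.5 and 87.9 in the OVX-AS-IV-High libraries. Both transporter genes were lowest in OVX-AS-IV-High-2 and -3, while OVX-AS-IV-High-1 lay above every OVX library. OVX-3 did not stand apart from OVX-2 in either gene.

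None of the 3 reached an adjusted p under 0.05 by the quasi-likelihood test of edgeR, and neither did any of the 16874 genes tested, in either comparison (smallest 0.118 and 0.652). By unadjusted p, 2775 and 1089 genes were under 0.05, and DESeq2 gave 834 and 37 with an adjusted p under 0.05. B2m changed by 0.22 on the log2 scale in OVX vs. Sham (standard error 0.136, edgeR adjusted p = 0.417), with an interval of ±2 standard errors from -0.05 to 0.49. In OVX-AS-IV-High vs. OVX it changed by -0.01 (standard error 0.136, edgeR adjusted p = 0.997). The log2FC of Tap1 was -0.23 (standard error 0.192, edgeR adjusted p = 0.55) and -0.19 (standard error 0.192, edgeR adjusted p = 0.945) in the respective comparisons. For Tap2 it was -0.17 (standard error 0.278, edgeR adjusted p = 0.771) and -0.38 (standard error 0.279, edgeR adjusted p = 0.921). Without Sham-1, the log2FC of Tap2 in OVX vs. Sham turned to 0.07. With the replicate number as a block, Tap2 changed by -0.46 in OVX-AS-IV-High vs. OVX (standard error 0.161, edgeR adjusted p = 0.558).

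Among themselves, Tap1 and Tap2 moved together whereas no relation with B2m passed the test. Over 9 libraries, log2 CPM of Tap1 and Tap2 correlated at r = 0.96 (two-sided exact permutation test, p = 0.000121, adjusted p = 0.000363 over 3 pairs) and rho = 0.88 (exact permutation p = 0.00308, adjusted p = 0.00924). Without Sham-1 and OVX-AS-IV-High-2, the libraries farthest from the median, r was 0.91, and over the 6 libraries of ovariectomized rats it was 0.98. B2m and Tap1 gave r = -0.37 (exact permutation p = 0.332, adjusted p = 0.355) and rho = -0.38 (exact permutation p = 0.312), and B2m and Tap2 r = -0.35 (exact permutation p = 0.355) and rho = -0.28 (exact permutation p = 0.463). Without Sham-1 and OVX-3, these r were 0.04 and 0.12.

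Measured by the ratio of the highest to the lowest library, 4 of the 7 RT1 genes (RT1-A3, RT1-CE10, RT1-CE13 and RT1-CE16) ranged at least 10-fold, and 0 of B2m, Tap1 and Tap2 did. Such a range was found in 6.49% of all genes tested and in 1.6% of the 11848 genes with a mean of at least 5 CPM, a background against which genes chosen by their counts are only described. Of the 18 other class I rows tested, 3 (LOC120093125, RT1-S2 and RT1-T24-1) ranged as widely, or 16.7%. The threshold of 10 was set after the values were seen. By the rule first written, 3 counts or fewer in some library and 50 or more in another, 0 of the 7 RT1 genes were switch-like, since RT1-CE16 kept at least 79 counts and RT1-A3 at least 36. By that rule 156 of 23026 genes were, RT1-S2 and LOC120093125 among 25 other class I rows. By range among the 11848 genes, RT1-CE16 ranked 10, RT1-A3 21, RT1-CE13 97, RT1-CE10 166 and RT1-A1 382. Of the 10 members Tap2 came next, at 1062, followed by RT1-CE12 at 1181, RT1-A2 at 2065, Tap1 at 2585 and B2m at 5810. The members nearest the threshold were RT1-CE10 at 11.3-fold and, well below it, RT1-A1 at 4.82-fold.

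**Figure D2:**
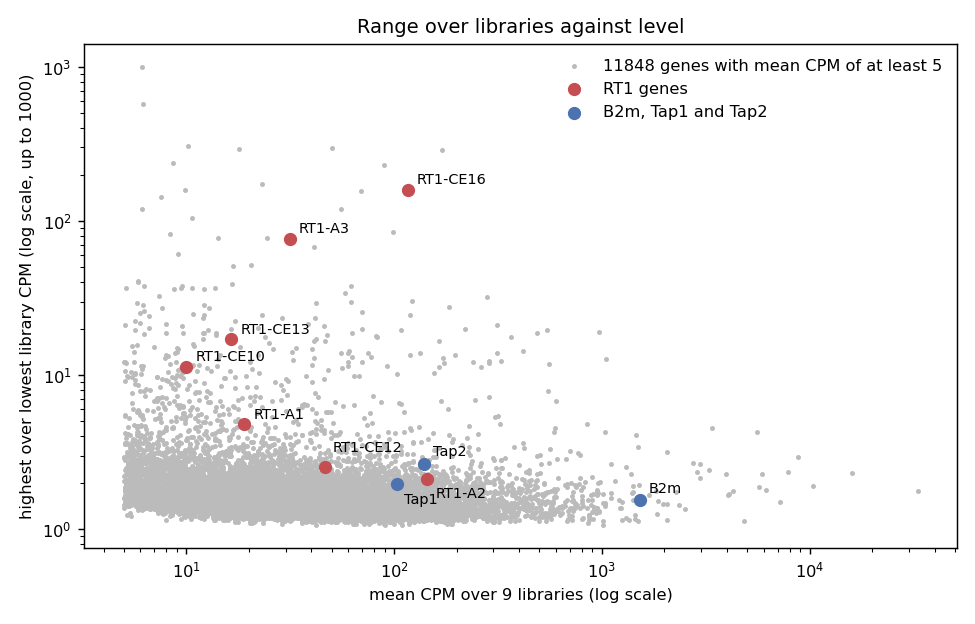
Ratio of the highest to the lowest library CPM against mean CPM over 9 libraries, both on log axes, for 11848 genes with a mean of at least 5 CPM (grey), the RT1 genes (red) and B2m, Tap1 and Tap2 (blue). RT1-CE16 (159.6-fold) and RT1-A3 (76.6-fold) lie high above the bulk of genes, and B2m (1.54-fold) lies within it.

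The summed level varied less than RT1-CE16 alone. Summed over the 7 RT1 genes, CPM was 548.6, 386.8 and 268.6 among Sham rats, 584.2, 671.1 and 286.2 in OVX, and 268.9, 195.8 and 247.0 in the OVX-AS-IV-High libraries, a range of 3.43-fold. The group means were 401.3 ± 140.6, 513.8 ± 201.9 and 237.3 ± 37.5 CPM (SD, n = 3 each), and OVX averaged 627.6 CPM without OVX-3. RT1-CE16 was the leading gene in Sham-1, Sham-2, OVX-1 and OVX-2, with 35.6% to 53.4% of the sum, and RT1-A2 led in the other 5. In OVX-3, RT1-CE16 made up 1.5% and RT1-A2 59.5%. Without RT1-CE16 and RT1-A3, the sum was 199.6 ± 67.2 in Sham, 278.8 ± 23.8 in OVX and 229.7 ± 40.8 in the OVX-AS-IV-High group (SD, n = 3 each).

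Outside the 7, the tables held 25 other class I rows, 7 of which never exceeded 10 counts in a library. The 5 highest were RT1-CE5 with a mean of 162.8 CPM and a range of 1.72-fold, RT1-S3 (151.4 CPM), RT1-T24-4 (120.6 CPM), RT1-CE4 (52.1 CPM) and RT1-T24-3 (36.0 CPM). The sum of the 25 was 697.7 ± 32.7 CPM in Sham, 654.5 ± 59.2 in OVX and 551.6 ± 162.2 in the OVX-AS-IV-High group (SD, n = 3 each), a range of 1.73-fold over libraries. All 32 rows together gave 1209, 1101 and 987.1 CPM among Sham rats, 1256, 1260 and 989.5 in OVX, and 1004, 621.7 and 741.3 in the OVX-AS-IV-High libraries. OVX-3 thus had a total near that of Sham-3 and OVX-AS-IV-High-1, with B2m at its highest. Per length, the 7 RT1 genes amounted to 11.5% to 48.0% of the FPKM of B2m, highest in OVX-2 and lowest in OVX-AS-IV-High-2.

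**Figure D3:**
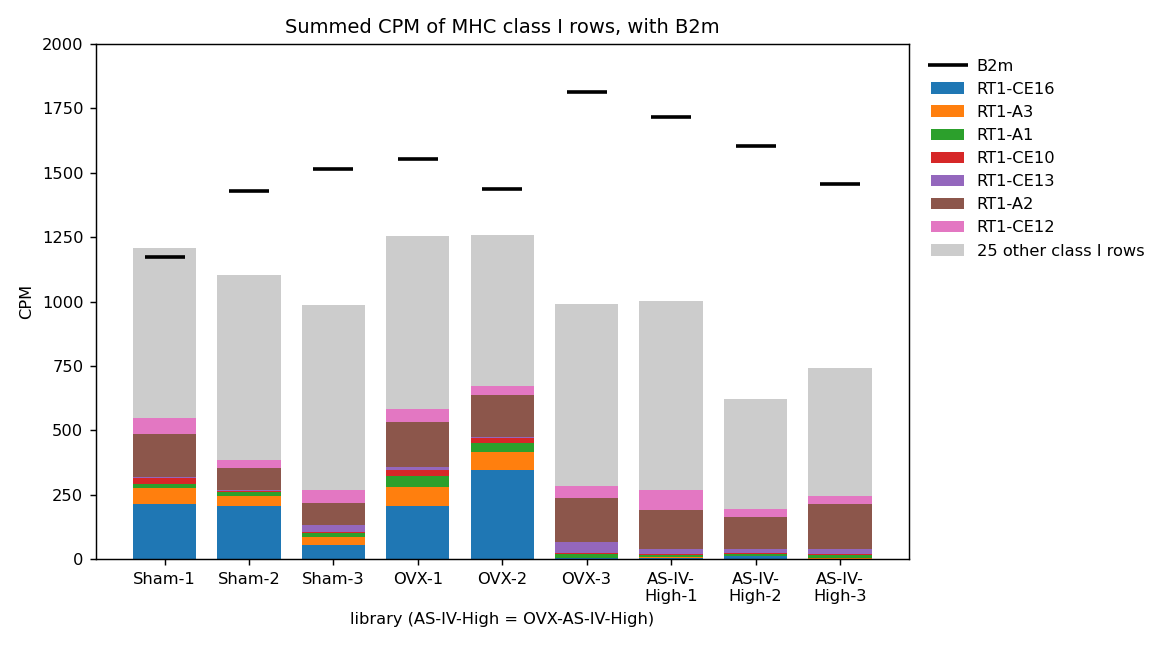
Stacked bars of CPM for the 7 RT1 genes (colors) and 25 other class I rows (grey) in each library, with B2m CPM as a black dash. RT1-CE16 leads the colored part in 4 libraries and RT1-A2 in 5, and B2m lies above the bar except in Sham-1.

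By the thresholds in the study's results, an absolute log2FC over 1 with an unadjusted p under 0.05, 3 of the 7 RT1 genes were past both in OVX-AS-IV-High vs. OVX, where 0.83% of all genes were. These were RT1-A1 with a log2FC of -1.57 (standard error 0.352), RT1-A3 with -4.91 (standard error 1.102) and RT1-CE16 with -4.96 (standard error 1.311). They are what the choice of genes rests on and test nothing. Leaving out each library in turn gave -1.93 to -1.22, -5.47 to -4.46 and -5.78 to -4.13, with OVX-3 the library that overlapped the treated group for the latter genes. In OVX vs. Sham, 0 of the 7 were past both thresholds, against 3.11% of all genes. With a lower threshold chosen after the data were seen, an absolute log2FC over 0.58, the numbers were 3 (2.19% of all genes) and 1 (RT1-A2, higher in OVX, 6.96% of all genes). Both comparisons use the same OVX libraries.

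The endothelial markers Pecam1, Cdh5 and Kdr summed to 175.9, 191.5 and 146.9 CPM among Sham rats, 169.5, 185.3 and 125.0 in OVX, and 140.1, 126.1 and 122.9 in the OVX-AS-IV-High libraries. Their 4 lowest libraries were those lowest in RT1-CE16 and RT1-A3, over a range of 1.56-fold against 159.6-fold and 76.6-fold. Leukocyte marker sums were highest in these 4 libraries, at 2427 to 2702 CPM against 1821 to 2422 CPM elsewhere, nearly touching. Every other marker list overlapped between these libraries and the rest. B lineage genes had 628.7 to 917.9 against 534.0 to 945.7 CPM, and T and NK genes 150.3 to 169.5 against 106.9 to 204.8 CPM. The part of endothelial or leukocyte markers in the RT1 values was not tested. Of 16864 genes, the 3 most like RT1-CE16 in log2 CPM over 9 libraries were Pecam1 (r = 0.939), Cavin3 and Hrct1. Pecam1 is also in the endothelial sum, with 58.9 to 71.9 CPM in its 4 lowest libraries and 79.0 to 110.4 CPM elsewhere. Without Pecam1, the sum in Sham-3 falls slightly below that in OVX-AS-IV-High-1, and the 4 lowest no longer match. The sum and this likeness are thus not separate observations. For RT1-A3 they were Olfm2 (r = 0.957), Cma1 and Ntmt1, for RT1-CE13 Clec4a (r = 0.932), Snrpd1 and Bcl2a1, and for RT1-CE10 LOC120096987 (r = 0.956), Zpbp2 and Tmed3. With so many genes and 9 libraries, 23 genes exceeded r = 0.9 for RT1-A3 and 15 for RT1-CE16.

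The rest of the pathway was followed in a list of 27 genes, from proteasome subunits to transcription factors, all of which were tested. In OVX vs. Sham, 0 of 27 were past both thresholds, and the largest absolute log2FC was 0.55. An unadjusted p under 0.05 was reached by 9 of the 27, all higher in OVX, a direction and p that 8.16% of all genes shared. In edgeR 0 of the 27 had an adjusted p under 0.05, and no other gene tested had one, whereas DESeq2 gave 3 (Psmb8, Psmb9 and Tapbpl) beside 4.94% of all genes. Of the 27, 23 had a positive log2FC, against 49.2% of all genes, and the median was 0.20 against -0.01. The libraries of the groups did not overlap in 11 of the 27, against 23.3% of all genes.

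Of the immunoproteasome subunits, which replace their constitutive counterparts in immune cells and under interferon, Psmb8 had 79.9, 77.7 and 92.0 CPM in Sham and 114.5, 121.3 and 129.3 in OVX. Its log2FC was 0.55 (standard error 0.123, edgeR adjusted p = 0.14). Psmb9 had 55.8, 54.2 and 54.5 CPM in Sham and 74.2, 65.9 and 75.7 in OVX, a log2FC of 0.39 (standard error 0.082, edgeR adjusted p = 0.138). In both genes every OVX library lay above every Sham library. The values for Psmb10 were 0.32 (standard error 0.106, edgeR adjusted p = 0.205).

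The other genes with an unadjusted p under 0.05 were Tapbpl, a peptide editor related to tapasin (log2FC 0.48), Uggt1, which checks glycoprotein folding (0.37), the proteasome activator genes Psme1 (0.33) and Psme2 (0.25), the constitutive subunit Psmb6 (0.25) and the transcription factor Irf2 (0.23), with edgeR adjusted p from 0.162 to 0.288. Tapasin itself, Tapbp, had a log2FC of 0.09 (standard error 0.126), and Nlrc5, the transactivator of class I genes, -0.01 (standard error 0.19). Tap1 and Psmb9 are divergent neighbours in GRCr8, with 457 bases between their annotated starts, and had log2FC of -0.23 and 0.39, a difference that was not tested. Leukocyte marker sums were higher in every OVX than in every Sham library, as were those of B lineage genes (917.9 to 945.7 against 534.0 to 677.6 CPM) and of T and NK genes (148.9 to 204.8 against 106.9 to 133.4 CPM). Their part in the list's values was not tested. The count of 9 was 3 without Sham-1, 4 without any of Sham-2, OVX-2 and OVX-3, and 16 without Sham-3. The share of all genes higher in OVX at that p was 5.41% without Sham-1, 5.06% to 5.37% without any of the next 3, and 12.9% without Sham-3.

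In OVX-AS-IV-High vs. OVX, 0 of the 27 genes were past both thresholds and 7 of 27 had a positive log2FC, against 46.7% of all genes, with a median of -0.12 against -0.02. The same OVX libraries served in OVX vs. Sham, so opposite signs in the comparisons are not independent. Psmb9 was the only 1 of 27 lower at an unadjusted p under 0.05, where 2.03% of all genes were. It had 61.6, 60.4 and 62.6 CPM in the treated libraries, below all 3 OVX libraries, and a log2FC of -0.23 (standard error 0.082, edgeR adjusted p = 0.685). Lnpep, an aminopeptidase that trims peptides in endosomes, was the only 1 higher, against 4.42% of all genes, with 116.8, 124.4 and 119.3 CPM in OVX and 146.5, 145.0 and 137.4 in the OVX-AS-IV-High libraries (log2FC 0.25, standard error 0.082, edgeR adjusted p = 0.652). The next smallest p were those of Psmb6 (log2FC -0.22, standard error 0.107, edgeR adjusted p = 0.806) and of Canx, the chaperone calnexin (log2FC 0.27, standard error 0.149, edgeR adjusted p = 0.861). With the replicate block, 5 of the 27 had an unadjusted p under 0.05, 4 of them lower, where 2.8% of all genes were lower in that fit. The count of 2 became 5 without OVX-AS-IV-High-3, 4 without OVX-AS-IV-High-1 or Sham-3, and 1 without OVX-1, OVX-3 or OVX-AS-IV-High-2, while the share of all genes under that p lay between 4.0% and 8.47% in these fits.

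**Figure D4:**
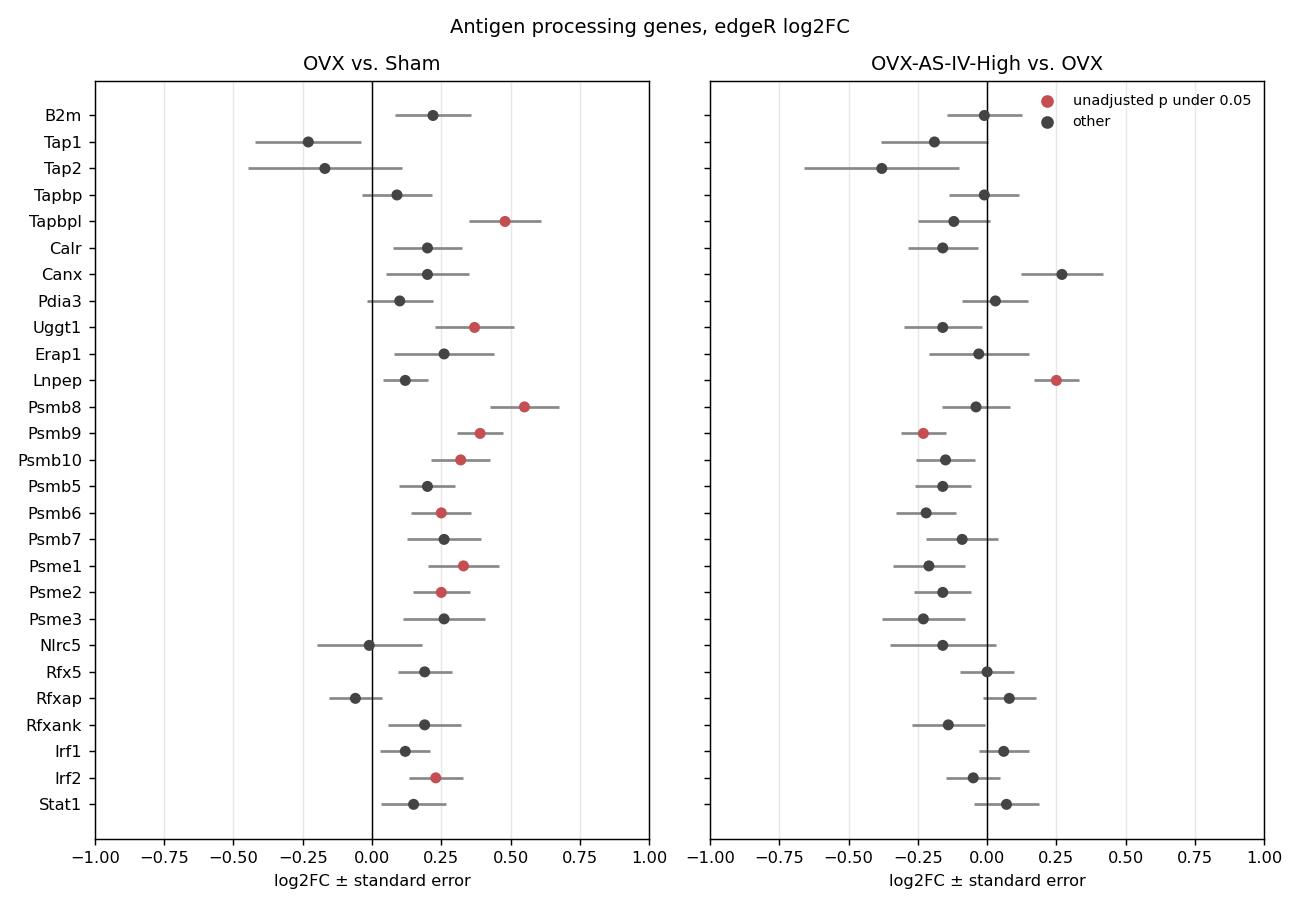
The edgeR log2FC of the 27 antigen processing genes in OVX vs. Sham (left) and OVX-AS-IV-High vs. OVX (right), with bars for 1 standard error and red points for an unadjusted p under 0.05. Points lie mostly right of 0 on the left (23 of 27) and left of 0 on the right (20 of 27), all within 0.55 of it. The panels share the OVX libraries, so their opposite signs are not independent.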

How the data were processed

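RNA from the bone of 9 rats, each an independent biological replicate, was sequenced as poly(A) libraries with paired reads. The authors filtered the reads, aligned them using Tophat with Bowtie2 and estimated gene abundance by eXpress. The deposited tables hold whole-number counts, not normalized, and FPKM for the same genes. The build in the submitters' processing notes is mRatBN7.2. Whether counting used strand is not given in the sources used here. RT1 class I genes are paralogs, and reads that fit several of them may be divided or counted to another RT1 gene. This was not tested here, and RT1 values are uncertain to that extent. The same holds for overlapping records such as RT1-CE12 and RT1-CE13.

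From the counts, edgeR 4.0.16 (R 4.3.3) was run with TMM normalization, the default filter (minimum count of 10) and all 9 libraries in 1 quasi-likelihood fit, with Benjamini-Hochberg adjustment over 16874 genes. Biological variation over all genes was 0.256 (common coefficient). Calls used the thresholds of the study's results, an absolute log2FC over 1 with an unadjusted p under 0.05; its methods name a log2FC of 0.58, an alternative added after seeing the data. A level of 3 counts was taken as the floor of detection. Alternatives were DESeq2 1.42.0, RLE size factors, no filter, limma 3.58.1 on log2(FPKM + 1) and log2(FPKM + 0.1), a fit of the groups compared, a replicate block and leaving out each library. The test was checked on simulated counts. Correlations used log2 CPM with a prior count of 2 and exact permutation tests in scipy 1.17.1. The members and lists were chosen with earlier results of these data known. The genes named by rule are the 10 members, the 4 genes of the 27-gene list with the smallest p in each comparison where none was called, class I rows that were switch-like or among the 5 highest, and for switch-like RT1 genes the 3 of most similar pattern, applied here to those with a range of at least 10. Other listed genes, records and class I rows were named after their values were seen. Promoter windows came from RefSeq GRCr8, whose table matched 21657 gene identifiers and all 10 members. Its coordinates were used only for these windows and for gene order. TTTCACTTC was added after the windows were read.

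In their deviations from the group means, same-numbered OVX and OVX-AS-IV-High libraries had r = 0.31, 0.158 and 0.13. Of the unlike-numbered pairs, OVX-2 with OVX-AS-IV-High-3 had 0.178, and the others had -0.283 to -0.046. The number was taken to pair these groups, although the sources used here describe no matching of rats. The replicate block was fitted over all 9 libraries, so it also blocked Sham by number. The main fit holds no block. Between Sham and OVX the values were 0.2, -0.161 and 0.253, and between Sham and OVX-AS-IV-High 0.314, -0.158 and 0.435. No pairing with Sham was inferred from these values.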

Additional observations from a re-analysis of the deposited data

How the results depend on the processing

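Of 265 alternative values, 244 kept their direction and side of the threshold, 9 changed sign and 12 counts moved by over 1.5 times. The log2FC of B2m in OVX-AS-IV-High vs. OVX, -0.01, became 0.01 with DESeq2, with RLE size factors and with no filter, and ranged from -0.07 to 0.09 with each library left out (0.00 without Sham replicate 1, 0.05 without OVX-AS-IV-High replicate 3 and 0.09 without OVX replicate 3). That of Tap2 in OVX vs. Sham ranged from -0.33 to 0.07, and Tap1 from -0.34 to -0.14. Between the treated group and OVX, Tap1 ranged from -0.46 to -0.04 and Tap2 from -0.78 to -0.20. The lowest values came without OVX-AS-IV-High replicate 1, with unadjusted edgeR p of 0.0103 and 0.0046 and an adjusted p of 0.953 for both. The highest came without OVX-AS-IV-High replicate 2. Without Sham replicate 1, r of B2m became 0.04 with Tap1 and 0.17 with Tap2; the lowest values were -0.53 and -0.50, and Tap1 with Tap2 stayed at 0.94 to 0.98. Over all genes, 525 were past the thresholds in OVX vs. Sham, 791 with no filter, 75 and 315 with limma on log2(FPKM + 1) and log2(FPKM + 0.1), and 379 to 1028 with a library left out. The 1028 came without Sham replicate 3, and an absolute log2FC over 0.58 gave 1174. In OVX-AS-IV-High vs. OVX, 140 became 274, 13 and 80, and 137 to 206 with a library left out, and 369 with that threshold. With a range of at least 10 in place of the count rule, switch-like RT1 genes went from 0 to 4 and all genes from 156 to 1095. The cause of these shifts was not tested.

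With the replicate block, Tap1 and Tap2 changed by -0.22 and -0.13 in OVX vs. Sham, where 705 genes were past the thresholds. The treated group against OVX gave -0.22 and -0.46, with 153 genes. There the unadjusted edgeR p of Tap2 went from 0.202 to 0.0222 with the block, and its adjusted p from 0.921 to 0.558. A call needs an absolute log2FC over 1, which none of B2m, Tap1 and Tap2 came near, so the block could change no call of theirs. In OVX vs. Sham, the number was not taken to pair libraries, yet the block covered Sham as well. Values with the block, also those of the treated group against OVX, rest in part on that numbering. With the block, 13 of the 27 listed genes there had an unadjusted p under 0.05, all higher, as did 10.7% of all genes.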

Other observations

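Some class I rows outside the 7 genes divided the libraries in other ways. RT1-T24-4 had 41.1 and 49.4 CPM in OVX-AS-IV-High-2 and -3 and 118.2 to 179.8 CPM in the other 7 libraries, and RT1-T24-3 had 15.4 and 14.7 CPM there against 24.6 to 59.5 CPM. These are the libraries lowest in Tap1 and Tap2.

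OVX-2 stood apart in a different pair. RT1-T24-1 had 0.448 CPM in OVX-2 and 6.21 to 16.9 CPM elsewhere, and RT1-N2 had 4.22 CPM against 20.1 to 30.7 CPM. RT1-S2 had 5 counts in Sham-3 and 2 in OVX-3, the libraries highest in RT1-CE13, and 26 to 101 counts in the other 7. LOC120093125 was lowest in Sham-3, OVX-AS-IV-High-2 and -3, at 0.0845, 0.244 and 0.247 CPM, and reached 3.04 CPM in OVX-3. These rows were named after their values were seen and carry no test.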
